A study of Mus musculus with 4 samples.

Results

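Translation initiation factors are the proteins that bring the small ribosomal subunit, the initiator methionyl-tRNA and an mRNA together before protein synthesis starts. Their genes were chosen by name: every gene of the deposited table whose mouse symbol begins with Eif and a digit from 1 to 6, leaving out the Eif2ak kinases, the X- and Y-linked genes Eif2s3x and Eif2s3y, and pseudogenes. The rule kept 48 of the 57 names that begin this way, out of 23763 genes in the table, and all 48 reached the minimum level for testing. The rule reads names and no measured value, but it was proposed with earlier results of these data known. RNA came from whole spleens of C57BL/6J mice labelled as at baseline, with 2 libraries from wild-type mice (WT) and 2 from mice labelled KLHL3-KI, a knock-in at Klhl3, the gene of a substrate adaptor for a ubiquitin ligase. Neither the allele of the knock-in nor the mice's age or sex is given in the sources used here, and nothing says whether the 2 libraries of a group came from separate animals. The p-values below therefore measure only the spread between these samples, which may be technical. The comparison asks how spleen RNA differed between the knock-in and wild-type mice.

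Initiation in animal cells runs through a fixed order of complexes. The factor eIF2 carries the initiator tRNA with GTP and is recharged by the exchange factor eIF2B; eIF1, eIF1A, eIF3 and eIF5 join it on the small ribosomal subunit; and eIF4F, made of the cap-binding protein eIF4E, the scaffold eIF4G and the helicase eIF4A, loads the mRNA. Phosphorylation of eIF2 alpha slows the whole process, and the 4E-binding proteins keep eIF4E away from eIF4G. The spleen of the mouse holds lymphocytes, macrophages that clear old red cells, and blood-forming cells, and dividing blood precursors are known for a high demand for protein synthesis.

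The subunits of eIF4F are shown with their promoter sequence because each has a gene that rose in KLHL3-KI and carries the E-box CACGTG, the motif known to be bound by Myc and related proteins. Each sequence is 300 bases, from 250 before to 50 after the annotated start, from RefSeq with build GRCm38.p6, and the E-box stands in capitals. The authors' build was GRCm39, so these coordinates do not apply to the deposited values. Eif4e lies at chr3:138527018-138527317 on the plus strand, Eif4a1 at chr11:69672374-69672673 on the minus strand and Eif4g1 at chr16:20672477-20672776 on the plus strand.
Eif4e: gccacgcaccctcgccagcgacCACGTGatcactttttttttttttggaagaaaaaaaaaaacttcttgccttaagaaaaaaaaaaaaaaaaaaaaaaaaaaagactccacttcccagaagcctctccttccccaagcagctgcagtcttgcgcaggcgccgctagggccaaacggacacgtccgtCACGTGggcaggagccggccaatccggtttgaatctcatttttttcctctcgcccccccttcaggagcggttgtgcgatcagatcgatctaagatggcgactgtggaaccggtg
Eif4a1: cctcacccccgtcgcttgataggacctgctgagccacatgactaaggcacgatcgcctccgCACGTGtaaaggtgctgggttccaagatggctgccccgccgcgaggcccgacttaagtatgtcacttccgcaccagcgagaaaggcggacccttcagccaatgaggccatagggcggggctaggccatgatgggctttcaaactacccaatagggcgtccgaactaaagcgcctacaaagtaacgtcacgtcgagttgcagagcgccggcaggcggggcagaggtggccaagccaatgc
Eif4g1: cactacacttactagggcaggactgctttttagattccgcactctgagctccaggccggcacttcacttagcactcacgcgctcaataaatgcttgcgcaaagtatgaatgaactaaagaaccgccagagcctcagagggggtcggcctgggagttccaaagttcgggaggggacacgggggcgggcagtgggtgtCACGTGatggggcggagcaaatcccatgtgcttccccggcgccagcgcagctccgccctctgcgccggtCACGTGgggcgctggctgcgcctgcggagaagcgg
The RefSeq table held windows for 37 of the 48 genes, 49 windows in all since some genes have several starts. CACGTG, which reads the same on both strands, was in 12 of the 49 windows (24.5%), against 9.52% of the windows of all tested genes and 7.15% of all 32851 windows. Windows of 1 gene can overlap, so that a site can count more than once, as it did for Eif5a. Counted by gene, 10 of the 37 had the motif, with no count by gene over all tested genes to set beside it. The ETS-type motif CCGGAAG was in 36.7% of the windows on either strand, against 16.0% for tested genes. The GATA motif AGATAA was in 2.04% against 7.07%, and CCAAT in 26.5% against 37.5%. The 10 genes with an E-box were Eif1b, Eif3a, Eif3f, Eif3k, Eif4a1, Eif4e, Eif4g1, Eif4h, Eif5a and Eif5a2. Of these, 7 rose and none fell, against 15.2% and 7.56% of all tested genes, with a median log2 fold change of 0.42. Of the 27 matched genes without it, 10 rose and 1 fell, with a median of 0.29. For the ETS-type motif the order was the other way, with 5 of 15 genes that hold it rising (median 0.33) against 12 of 22 without it (median 0.39). For CCAAT 7 of 13 genes with it rose (median 0.38), against 10 of 24 without it (median 0.28), and the 1 gene with AGATAA did not pass. No difference between these groups of genes was tested, and a match is only a description of the letters in the window.

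Values below are scaled read counts, that is, reads divided by 1 factor per library, and they are given for replicate 1 and then replicate 2 of each group. Each log2 fold change is the KLHL3-KI minus the WT mean on log2(value + 1) with its standard error (SE), and a gene rose or fell where limma gave an adjusted p under 0.05 over all 16970 tested genes. The libraries held 8535483 and 8975415 reads in WT, against 9586677 and 10933023 in KLHL3-KI. All 14 markers of spleen tissue on a list of B cell, T cell, macrophage and stromal genes were detected. Klhl3 itself was low, at 3.02 and 4.67 in WT, against 2.53 and 1.36 in KLHL3-KI (log2 fold change -0.72, limma adjusted p = 0.0895), and since the allele is not given its level does not check the labels.

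Of the 48 initiation factor genes, 21 rose in KLHL3-KI, 1 fell and 26 did not pass the test. The 21 are 43.8% of the group, against 15.2% of all tested genes that rose, while 7.56% of all genes fell. Among genes whose mean value reached 10, where 47 of the 48 lie, 20.2% rose and 9.85% fell. The size of the change was moderate: the median log2 fold change of the 48 genes was 0.31, against -0.01 for all tested genes, and 7.28% of all tested genes had a larger log2 fold change than the highest initiation factor gene. Summed over the 48 genes, the level was 6057 and 5795 in WT, against 6912 and 7683 in KLHL3-KI, which is 0.634% and 0.622% of the reads in WT, against 0.655% and 0.722% in KLHL3-KI. In whole-tissue RNA of this kind, a change in the number of cells of a type and a change in RNA per cell cannot be told apart.

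In 39 of the 48 genes both KLHL3-KI values lay above both WT values, against 32.8% of all tested genes; in 2 genes, Eif4g3 and Eif4e3, both lay below, against 31.9%; and in 7 genes the groups overlapped. Groups that do not overlap are common here, as 64.7% of all tested genes had them in either direction. The log2 fold change was above 0 in 42 of the 48 genes as deposited, in 38 with equal total reads per library and in 37 after quantile normalization. Those scalings moved the median of all tested genes to -0.16 and -0.10, and the median of the 48 genes stood 0.30 and 0.29 above it, against 0.32 as deposited. With equal total reads 1916 genes rose and 3130 fell over the whole table, and after quantile normalization 2050 rose and 2372 fell, against 2583 and 1283 as deposited.

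The KLHL3-KI libraries were not alike in these genes. Replicate 2 was above replicate 1 in 41 of the 48 genes, by a median of 0.15 on the log2 scale, where the median over all tested genes was 0.02. In WT, replicate 2 was the higher in 16 of the 48 genes, with a median difference of -0.06. The number of initiation factor genes that rose was 11 without KLHL3-KI replicate 2, 25 without KLHL3-KI replicate 1, 11 without WT replicate 1 and 6 without WT replicate 2, where 11.5%, 17.3%, 10.1% and 8.20% of all tested genes rose. Only Eif2s1, Eif2s2, Eif4ebp1 and Eif5a passed under all 14 alternative settings, those that leave out a library included. With equal total reads, Eif1, Eif1a, Eif3a, Eif3b, Eif3m, Eif4g1, Eif4h, Eif5 and Eif5a2 no longer passed (adjusted p from 0.0538 to 0.165), and after quantile normalization Eif1a, Eif3m, Eif4g1, Eif4h and Eif5a2 did not (0.0533 to 0.113). Without the variance trend of limma, the genes that still passed were Eif2b1, Eif2b3, Eif2s1, Eif2s2, Eif3j1, Eif3j2, Eif4e, Eif4ebp1 and Eif5a. DESeq2 did not call Eif3m (0.0540) or Eif5a2, and edgeR on the recovered reads called the same number of genes as limma, 21 up and 1 down.

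**Figure D1:**
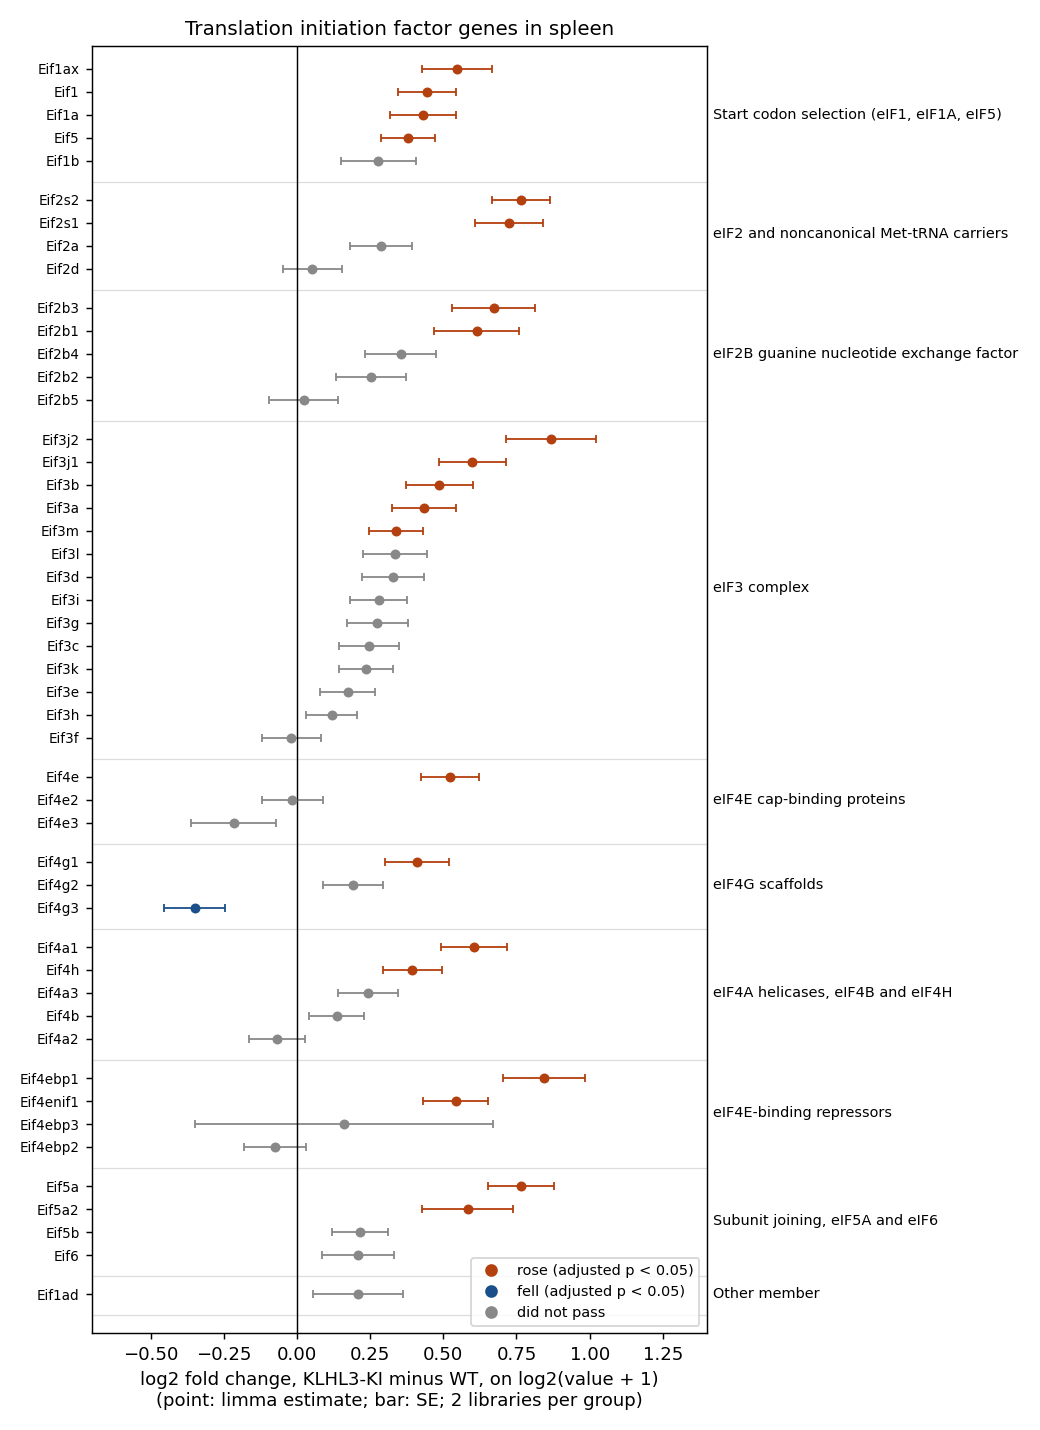
Log2 fold change (KLHL3-KI minus WT, on log2(value + 1)) of each of the 48 initiation factor genes on the horizontal axis, grouped by role, with bars for the SE of the limma fit over 2 libraries per group. Of the points, 21 mark genes that rose, 1 marks Eif4g3, which fell, and the 26 grey points did not pass; under the scaling to equal total reads 38 points, not 42, lie above 0.

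Both genes of eIF2, the carrier of the initiator tRNA, rose, against 15.2% of all tested genes. Eif2s2 had the lowest p of the whole group. Eif2s2, which encodes the beta subunit, was at 74.4 and 74.5 in WT, against 119.8 and 135 in KLHL3-KI, a log2 fold change of 0.77 (with an SE of 0.10 and a limma adjusted p = 0.000494). Eif2s1, the gene of the alpha subunit whose phosphorylation slows initiation, was at 61.4 and 58.4 in WT, against 90.0 and 110.2 in KLHL3-KI (0.72, SE 0.12, adjusted p = 0.00187). In both genes the WT libraries lay close together and KLHL3-KI replicate 2 was the highest. The gene of the gamma subunit on the X chromosome, Eif2s3x, stood outside the rule; it was at 152 and 138 in WT, against 182 and 216 in KLHL3-KI (0.45, adjusted p = 0.0160 and 0.0669 with equal total reads), with an adjusted p of 0.0574 without WT replicate 1, 0.152 on leaving out WT replicate 2, and 0.0809 without KLHL3-KI replicate 2. Its Y-linked counterpart Eif2s3y was at 58.2 and 55.3 in WT, against 49.9 and 57.9 in KLHL3-KI and did not pass (-0.08, adjusted p = 0.663). The alternative carriers of initiator tRNA did not pass: Eif2a had a log2 fold change of 0.29 (adjusted p = 0.0825) and Eif2d of 0.05 (adjusted p = 0.743).

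Of the 5 subunit genes of eIF2B, the complex that exchanges GDP for GTP on eIF2, 2 rose. Of all tested genes 15.2% rose, and of those with a mean of at least 10, 20.2%. Eif2b3, for the gamma subunit, was at 10.4 and 11.5 in WT, against 17.4 and 18.7 in KLHL3-KI (log2 fold change 0.67 with an SE of 0.14, limma adjusted p = 0.00860). Eif2b1, for the alpha subunit that senses phosphorylated eIF2, was at 13.98 and 14.4 in WT, against 20.04 and 24.7 in KLHL3-KI (0.61, SE 0.15, adjusted p = 0.0143). Both genes had separate groups. Eif2b4 and Eif2b2 did not pass, at 0.35 and 0.25, although their groups did not overlap. Groups that do not overlap were found in 64.7% of all tested genes. The catalytic subunit gene Eif2b5, the most abundant of the 5 by scaled count, was at 41.8 and 40.1 in WT, against 38.2 and 45.3 in KLHL3-KI, with overlapping groups and a log2 fold change of 0.02 (adjusted p = 0.915). Without WT replicate 1 the adjusted p was 0.0711 for Eif2b3 and 0.0934 for Eif2b1, and Eif2b1 also missed the threshold without WT replicate 2 (0.0907) or without KLHL3-KI replicate 2 (0.0874).

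Start codon recognition is the work of eIF1, eIF1A and eIF5, and 4 of their 5 genes rose. Of all tested genes 15.2% rose, and of those with a mean of at least 10, 20.2%. Eif1ax, for the X-linked form of eIF1A, was at 52.4 and 44.2 in WT, against 66.4 and 75.5 in KLHL3-KI (log2 fold change 0.55 with an SE of 0.12, limma adjusted p = 0.00956). Its relative Eif1a was at 51.9 and 43.7 in WT, against 63.4 and 65.5 in KLHL3-KI (0.43, SE 0.11, adjusted p = 0.0233). Eif1, which keeps the ribosome scanning until a start codon is found, was at 223 and 219.6 in WT, against 280.0 and 324 in KLHL3-KI (0.44, SE 0.10, adjusted p = 0.0108). Eif5, the GTPase-activating factor for eIF2 and the most abundant of these genes by scaled count, was at 315 and 293 in WT, against 381 and 409.7 in KLHL3-KI (0.38, SE 0.09, adjusted p = 0.0170). Both KLHL3-KI values lay above both WT values in all 5 genes, against 32.8% of all tested genes. Eif1b was at 20.03 and 17.6 in WT, against 23.2 and 22.8 in KLHL3-KI, and did not pass (0.28, adjusted p = 0.157). Single libraries carried weight here. Without WT replicate 2 the adjusted p was 0.0956 for Eif1, 0.188 for Eif1a, 0.112 for Eif1ax and 0.138 for Eif5; without WT replicate 1 it was 0.0718 for Eif1 and 0.0588 for Eif5; and without KLHL3-KI replicate 2 it was 0.0632 for Eif1, 0.0543 for Eif1a and 0.0826 for Eif5.

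Of the 14 genes of eIF3, the large scaffold on the small ribosomal subunit, 5 rose and none fell. The 5 are 35.7% of the complex, against 15.2% of all tested genes that rose. The largest change was in the loosely bound subunit eIF3j. Eif3j1 was at 45.1 and 44.5 in WT, against 62.4 and 74.8 in KLHL3-KI (log2 fold change 0.60 with an SE of 0.11, limma adjusted p = 0.00502). Its copy Eif3j2 was at 12.1 and 9.86 in WT, against 19.4 and 22.2 in KLHL3-KI (0.87, SE 0.15, adjusted p = 0.00348). The split between these copies is uncertain: 91.8% of the 50-base stretches of the longest Eif3j2 transcript also occur in other genes, 90.8% in Eif3j1, and 39.8% of those of Eif3j1 are shared. With Eif3j1 and Eif3j2 set aside, 3 of 12 eIF3 genes rose (25.0%). That share is near the background, as 20.2% of genes whose mean reached 10 rose. Eif3b, a core subunit with an RNA recognition motif, was at 133 and 130.1 in WT, against 165 and 207 in KLHL3-KI (0.49, SE 0.11, adjusted p = 0.0140). Eif3a, the core subunit on which the complex is built and the most abundant eIF3 gene by scaled count, was at 323 and 286 in WT, against 379 and 447 in KLHL3-KI (0.43, SE 0.11, adjusted p = 0.0199). Eif3m rose by less, with a log2 fold change of 0.34 (adjusted p = 0.0267). The other 9 genes, Eif3c, Eif3d, Eif3e, Eif3f, Eif3g, Eif3h, Eif3i, Eif3k and Eif3l, did not pass and ranged from -0.02 for Eif3f to 0.33 for Eif3l. In 13 of the 14 genes both KLHL3-KI values were above both WT values, against 32.8% of all tested genes, and Eif3f was the exception, at 153 and 172 in WT, against 152 and 169 in KLHL3-KI. Without WT replicate 1 the adjusted p was 0.0546 for Eif3a, 0.0872 for Eif3b and 0.0896 for Eif3m; without WT replicate 2 it was 0.175, 0.122 and 0.170, and 0.0626 for Eif3j1 and 0.0509 for Eif3j2; and without KLHL3-KI replicate 2 it was 0.102 for Eif3a, 0.0758 for Eif3b and 0.107 for Eif3m.

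Compared per kilobase of the longest protein-coding transcript, the mean WT level of the 13 eIF3 genes other than Eif3j2 ran from 8.28 for Eif3j1 to 117 for Eif3e, with a median of 63.1 scaled reads per kilobase. In KLHL3-KI the same genes marked the ends, at 12.7 and 132, and the median was 74.8. The gene with the lowest level per length was thus Eif3j1 in both groups.

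Within eIF4F, each subunit had a gene that rose beside relatives that did not. Eif4e, for the main cap-binding protein, was at 60.2 and 59.1 in WT, against 81.6 and 90.8 in KLHL3-KI (log2 fold change 0.52 with an SE of 0.10, limma adjusted p = 0.00512). Eif4e2, whose protein binds the cap but is known for repressing mRNAs, was at 54.7 and 61.3 in WT, against 56.9 and 57.7 in KLHL3-KI, and the groups overlapped (-0.02, adjusted p = 0.934). Eif4e3, a more distant cap-binding relative, was at 16.9 and 20.8 in WT, against 16.2 and 15.8 in KLHL3-KI, both below WT, and did not pass (-0.22, adjusted p = 0.321). Without WT replicate 2 the adjusted p of Eif4e was 0.0614. The family member Eif4e1b was not analysed here.

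The scaffold genes split in direction. Eif4g1, the main scaffold that bridges eIF4E and eIF3, was at 283 and 290.2 in WT, against 344 and 421 in KLHL3-KI (log2 fold change 0.41 with an SE of 0.11, limma adjusted p = 0.0252). Eif4g3, its close relative, was the gene that fell, at 143 and 171 in WT and 123 in each KLHL3-KI library (-0.35, SE 0.11, adjusted p = 0.0403). Eif4g2, which encodes a scaffold without the eIF4E site and had the highest scaled count of all 48 genes, was at 805 and 711 in WT, against 832 and 895 in KLHL3-KI and did not pass (0.19, adjusted p = 0.222). The groups did not overlap in any of the 3 genes, as in 64.7% of all tested genes. The calls rest on single libraries: for Eif4g1 the adjusted p was 0.141 without WT replicate 1, 0.132 on leaving out WT replicate 2, and 0.167 without KLHL3-KI replicate 2, where its log2 fold change was 0.26. For Eif4g3 it was 0.280 without WT replicate 2, with a log2 fold change of -0.22, and 0.0729 without KLHL3-KI replicate 2, and it was 0.0547 with no filter on low values.

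Among the helicases and their cofactors, Eif4a1 and Eif4h rose and Eif4a2, Eif4a3 and Eif4b did not pass. Eif4a1, the main unwinding enzyme of eIF4F, was at 339 and 299.6 in WT, against 444 and 529 in KLHL3-KI (log2 fold change 0.60 with an SE of 0.11, limma adjusted p = 0.00443). Eif4a2, its close relative, was at 404 and 379 in WT, against 392 and 355 in KLHL3-KI, with overlapping groups (-0.07, adjusted p = 0.645). By scaled count, Eif4a1 was thus below Eif4a2 in both WT libraries and above it in both KLHL3-KI libraries. That order depends on transcript length. Per kilobase of the longest protein-coding transcript, Eif4a1 had the higher mean in both groups, at 180 against 145 in WT and 274 against 138 in KLHL3-KI. Reads of Eif4a1 are not unique throughout, as 65.3% of its 50-base stretches occur elsewhere, 64.9% in the pseudogene Eif4a-ps4. Eif4h, a cofactor that stimulates the helicase, had a log2 fold change of 0.39 (adjusted p = 0.0197), and the cofactor Eif4b one of 0.14 (adjusted p = 0.344). Eif4a3, which belongs to the exon junction complex, was at 0.24 (adjusted p = 0.121). Without WT replicate 2 the adjusted p was 0.0715 for Eif4a1 and 0.0942 for Eif4h, and Eif4h also missed the threshold without WT replicate 1 (0.133) and without KLHL3-KI replicate 2 (0.114).

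Of the 4 genes of proteins that bind and restrain eIF4E, 2 rose and 2 did not pass, where 15.2% of all tested genes rose. Eif4ebp1, whose product blocks eIF4E until it is phosphorylated by mTOR, was at 18.6 and 15.9 in WT, against 29.0 and 34.5 in KLHL3-KI, a log2 fold change of 0.84 (with an SE of 0.14 and a limma adjusted p = 0.00241). Its relative Eif4ebp2 had the higher scaled count, 189 and 223 in WT, against 185 and 205 in KLHL3-KI, with overlapping groups (-0.08, adjusted p = 0.652). Eif4enif1, for the protein that carries eIF4E into the nucleus and into P-bodies, was at 64.8 and 70.6 in WT, against 91.0 and 108 in KLHL3-KI (0.54, SE 0.11, adjusted p = 0.00711), with an adjusted p of 0.0783 without WT replicate 1. Eif4ebp3 was close to the detection limit, with 0 and 21 reads in WT, against 4 and 18 in KLHL3-KI, and no direction could be read at that depth.

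The factors of the last steps were divided. Eif5a, which helps the ribosome through difficult peptide bonds and carries the modified amino acid hypusine, was at 193 and 195 in WT, against 296 and 368 in KLHL3-KI (log2 fold change 0.76 with an SE of 0.11, limma adjusted p = 0.00116). Its relative Eif5a2 was at 17.9 and 13.6 in WT, against 22.8 and 25.0 in KLHL3-KI (0.58, SE 0.16, adjusted p = 0.0244). The groups were separate in both genes, as in 64.7% of all tested genes. Eif5a2 missed the threshold without WT replicate 2 (adjusted p = 0.186), without KLHL3-KI replicate 2 (0.0648) and by DESeq2 (0.0742). Eif5b, the GTPase that joins the ribosomal subunits, and Eif6, which keeps the large subunit from joining early, did not pass, with log2 fold changes of 0.22 and 0.21. Eif1ad, which matched the rule by name and has no place in the role groups, was at 26.3 and 23.9 in WT, against 25.0 and 33.9 in KLHL3-KI (0.21, adjusted p = 0.366), high in KLHL3-KI replicate 2 alone.

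**Figure D2:**
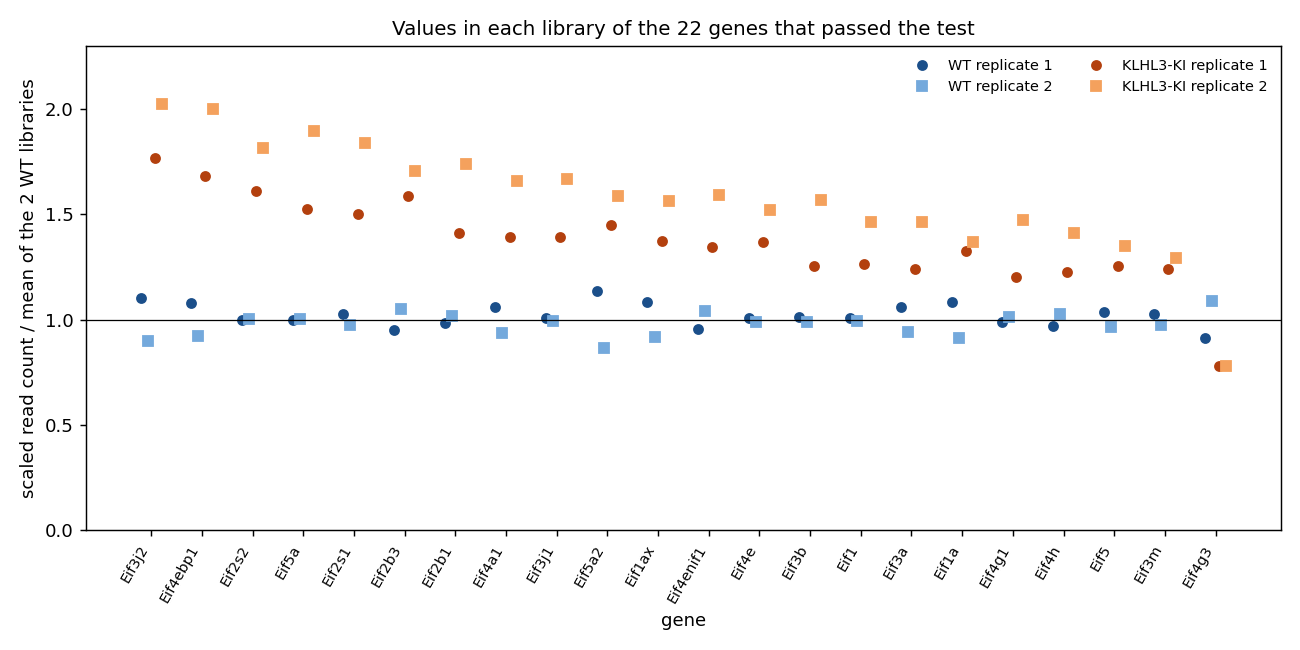
Scaled read count in each library divided by the mean of the WT libraries, for the 22 genes that passed the test; each point is 1 library and the horizontal line marks the WT mean. KLHL3-KI replicate 2 stands above KLHL3-KI replicate 1 in the genes that rose, and Eif4g3 at the right end is the gene with both KLHL3-KI points below the line.

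Ratios between related genes in the same library do not depend on the scaling of libraries, and their change between libraries does not depend on gene length. Of 10 pairs, 6 had both KLHL3-KI ratios above both WT ratios, 2 had both below and 2 overlapped; no test was made of these ratios. The ratio of Eif4a1 to Eif4a2 was 0.839 and 0.791 in WT, against 1.13 and 1.49 in KLHL3-KI. For Eif4g1 to Eif4g3 it was 1.97 and 1.70 against 2.81 and 3.44. The main eIF4F genes thus took a larger share beside their relatives in both KLHL3-KI libraries. Eif4e stood at 1.10 and 0.963 times Eif4e2 in WT and at 1.43 and 1.57 times in KLHL3-KI, and its ratio to Eif4e3 was 3.56 and 2.84 in WT, against 5.04 and 5.75 in KLHL3-KI. For Eif4ebp1 to Eif4ebp2 the ratio was 0.0981 and 0.0714 in WT, against 0.156 and 0.168 in KLHL3-KI. The ratio of Eif4g1 to Eif4g2 was nearest to overlap, at 0.351 and 0.408 in WT, against 0.413 and 0.471 in KLHL3-KI. The pairs with lower ratios in KLHL3-KI were Eif1a to Eif1ax (0.991 and 0.988, then 0.955 and 0.868) and Eif3j1 to Eif3j2 (3.73 and 4.52, then 3.22 and 3.37), the latter with shared sequence. Eif5a to Eif5a2 and Eif1 to Eif1b overlapped between the groups.

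**Figure D3:**
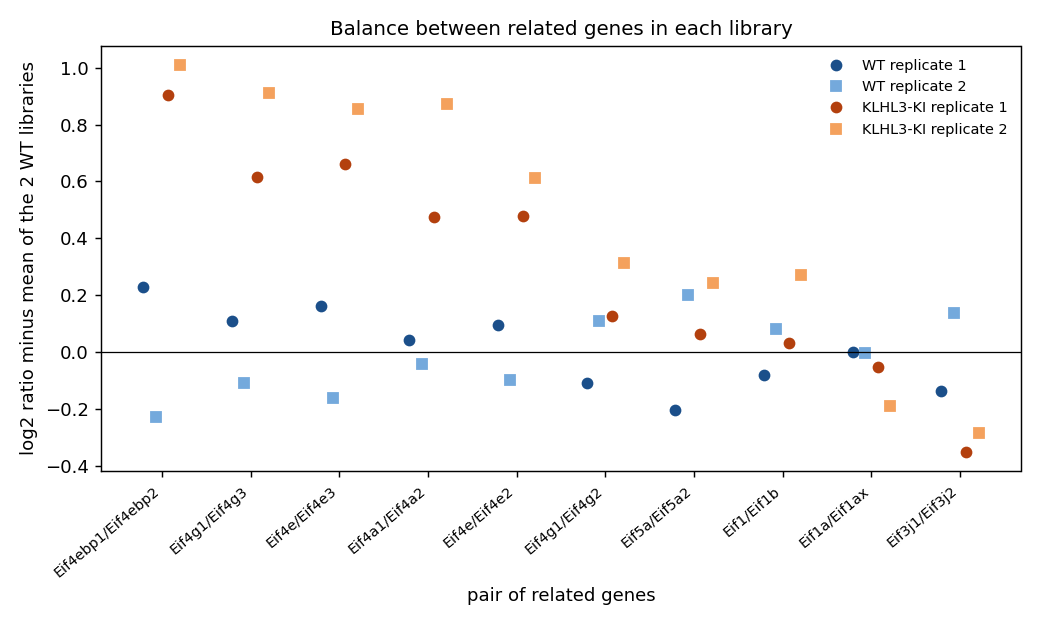
Log2 ratio of 2 related genes in each library minus the mean log2 ratio of the WT libraries, for 10 pairs; each point is 1 library. In 6 pairs both KLHL3-KI points lie above both WT points, in 2 both lie below, and Eif5a/Eif5a2 and Eif1/Eif1b overlap.

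Genes that act beside the initiation factors were read from lists chosen by role. In the list of eIF2 alpha kinases and phosphatases 6 of 8 rose and 1 fell, against 15.2% and 7.56% of all tested genes; 4 rose without WT replicate 1, 2 without WT replicate 2 and 3 without KLHL3-KI replicate 2, and 3 with equal total reads. Ppp1r15a, the stress-induced partner that directs protein phosphatase 1 to eIF2 alpha, was at 43.9 and 37.8 in WT, against 165 and 195 in KLHL3-KI (log2 fold change 2.11 with an SE of 0.12, limma adjusted p = 2.67e-06). Eif2ak1, the haem-regulated eIF2 alpha kinase of red cell precursors, was at 84.8 and 74.4 in WT, against 196 and 220.2 in KLHL3-KI (1.38, SE 0.11, adjusted p = 1.62e-05). Ppp1cb, a catalytic subunit of that phosphatase, rose with a log2 fold change of 0.43 (adjusted p = 0.00881). Eif2ak3, the kinase of endoplasmic reticulum stress, fell, from 81.4 and 75.7 in WT to 62.1 and 61.1 in KLHL3-KI (-0.35, SE 0.10, adjusted p = 0.0307), and missed the threshold when any of 3 libraries was left out: WT replicate 1 (0.175), WT replicate 2 (0.1002) and KLHL3-KI replicate 2 (0.0903). Ppp1cb did so without WT replicate 2 (0.0939). The other genes that rose were Eif2ak2, an interferon-induced kinase, Ppp1r15b, a constitutive partner of the phosphatase, and Ppp1cc, another catalytic subunit. Their log2 fold changes were 0.48, 0.50 and 0.33, and each missed the threshold with equal total reads, without WT replicate 2 and without KLHL3-KI replicate 2. Ppp1r15a and Eif2ak1 passed in all 14 alternatives. The list thus holds rises in genes that add phosphate to eIF2 alpha and in genes that remove it.

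Of the 15 genes of mTOR and MNK control of eIF4F, none rose and 2 fell by limma, a share near the background, as 9.85% of all genes with a mean of at least 10 fell. Cyfip2, of the family of eIF4E partners, fell with a log2 fold change of -0.40 (adjusted p = 0.0180), and Rps6kb2, an S6 kinase gene, with -0.45 (adjusted p = 0.0440). Without WT replicate 2 their adjusted p was 0.161 and 0.306, and Rps6kb2 was at 0.106 without KLHL3-KI replicate 2. In the Myc list 5 of 10 rose and 1 fell, against 15.2% and 7.56% of all tested genes, and 4 rose with equal total reads. Mycn was among the 5, at a low level, with 12 and 14 reads in WT, against 40 and 32 in KLHL3-KI. Its log2 fold change was 0.98 (limma adjusted p = 0.0152), and DESeq2 did not call it (adjusted p = 0.109). The call was also lost without KLHL3-KI replicate 1 and without either WT library. With a library left out its log2 fold change ran from 0.78 to 1.17. Mxd3, Mxd1 and Mxi1, which encode antagonists of Myc, had the lowest p-values, with log2 fold changes of 1.72, 1.65 and 1.07. Mxd4, another antagonist, fell (-0.43, adjusted p = 0.0197), with an adjusted p of 0.0842 without WT replicate 1, 0.159 on leaving out WT replicate 2, and 0.113 without KLHL3-KI replicate 2. Myc itself was at 35.4 and 44.6 in WT, against 51.3 and 65.2 in KLHL3-KI (0.53, SE 0.15, adjusted p = 0.0298). Its call rests on single libraries and on the scaling: the adjusted p was 0.215 without WT replicate 1, 0.0564 on leaving out WT replicate 2, 0.118 on leaving out KLHL3-KI replicate 2 and 0.0987 with equal total reads.

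Other lists covered elongation, termination, poly(A)-binding proteins and accessory initiation genes. Their counts stand beside 15.2% of all tested genes that rose and 7.56% that fell. Of 8 tested elongation genes, 3 rose and none fell: Eef1e1, a partner of the tRNA synthetase complex (log2 fold change 0.78, limma adjusted p = 0.00284), Eef2k, the kinase that slows elongation (0.70, adjusted p = 0.00663), and Eef1d, a nucleotide exchange subunit (0.52, adjusted p = 0.00412). Eef1a1 and Eef2, the abundant elongation factors, did not pass, at 0.07 and 0.08 as deposited and -0.099 and -0.093 with equal total reads. Without WT replicate 1 the adjusted p of Eef2k was 0.0640, and without WT replicate 2 that of Eef1d was 0.0626. Of 9 termination and recycling genes 2 rose, the release factor gene Etf1 (0.58, adjusted p = 0.00494) and the recycling factor gene Abce1 (0.59, adjusted p = 0.00797), and without WT replicate 2 neither passed (0.0728 and 0.109). That count is near the background, as 20.2% of all genes with a mean of at least 10 rose. Of 5 tested genes of poly(A)-binding proteins and partners, 2 rose: Pabpc4 went from 80.7 and 86.8 in WT to 212 and 279.6 in KLHL3-KI (1.53, SE 0.13, adjusted p = 3.12e-05), and Pabpc1 was at 0.33 (adjusted p = 0.0453). Pabpc1 missed the threshold without WT replicate 1 (0.176), without WT replicate 2 (0.135) and without KLHL3-KI replicate 2 (0.250). Of 7 accessory initiation genes, the helicase gene Ddx3x (0.36, adjusted p = 0.0340) and Abcf1 (0.43, adjusted p = 0.0272) rose. They are 28.6% of that list, not far from the 20.2% of genes with a mean of at least 10. Ddx3x and Abcf1 had an adjusted p of 0.0668 and 0.145 without WT replicate 1, 0.233 and 0.143 on leaving out WT replicate 2, and 0.168 and 0.173 on leaving out KLHL3-KI replicate 2. With equal total reads Pabpc1, Ddx3x and Abcf1 did not pass either (0.229, 0.161 and 0.112).

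Markers of several cell types moved with the groups beside these results. Over all tested genes 15.2% rose and 7.56% fell. All 13 tested markers of red cell precursors rose, and their summed scaled count was 19627 and 16959 in WT, against 37446 and 37738 in KLHL3-KI. Most of that sum is globin RNA. Hbb-bs was at 9691 and 8513 in WT, against 15988 and 15408 in KLHL3-KI, and Hba-a1 at 8165 and 7050, against 14657 and 14601. The median log2 fold change of the 13 markers was 2.56, against 0.79 for Hbb-bs and 0.95 for Hba-a1. All 12 cell division genes rose, from 1057 and 917 summed to 4095 and 4943, as did all 12 neutrophil markers, from 188 and 100.4 to 1537 and 2087, and all 7 megakaryocyte markers, from 170.2 and 176 to 389 and 501. Lymphocyte markers went the other way: 8 of 9 B cell markers fell, from 3347 and 3492 summed to 2558 and 1936, and all 9 T cell markers fell, from 564 and 519.7 to 321 and 294. The B cell count rests on the WT libraries: 5 of the 9 markers fell without WT replicate 1 and 2 on leaving out WT replicate 2, and the T cell count was 6 without WT replicate 1. Both KLHL3-KI values lay below both WT values for all 9 markers of each list, against 31.9% of all tested genes. Of 9 red pulp macrophage markers 1 rose, with sums of 2865 and 2539 against 3227 and 3397. Of 6 plasma cell markers 1 fell, with sums of 1945 and 2042 against 2071 and 2582. Counts this small in short lists are near the shares of all tested genes. The macrophage call was lost without WT replicate 2 and the plasma cell call without either WT library, and 2 plasma cell markers fell without KLHL3-KI replicate 1. No marker on these lists was at 0 in all libraries. Of the KLHL3-KI libraries, replicate 2 had the higher initiation factor sum. It also had the higher cell division, neutrophil, megakaryocyte, macrophage and plasma cell sums and the lower B cell and T cell sums. The red cell precursor sums of these libraries were nearly equal, but the markers on that list differed. Hbb-bs and Hba-a1, which make up most of the sum, were slightly lower in KLHL3-KI replicate 2. Every other tested marker of that list was higher there, such as Slc4a1 at 3056 against 2703 and Klf1 at 190 against 153. The part of these cell types in the initiation factor results was not tested.

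**Figure D4:**
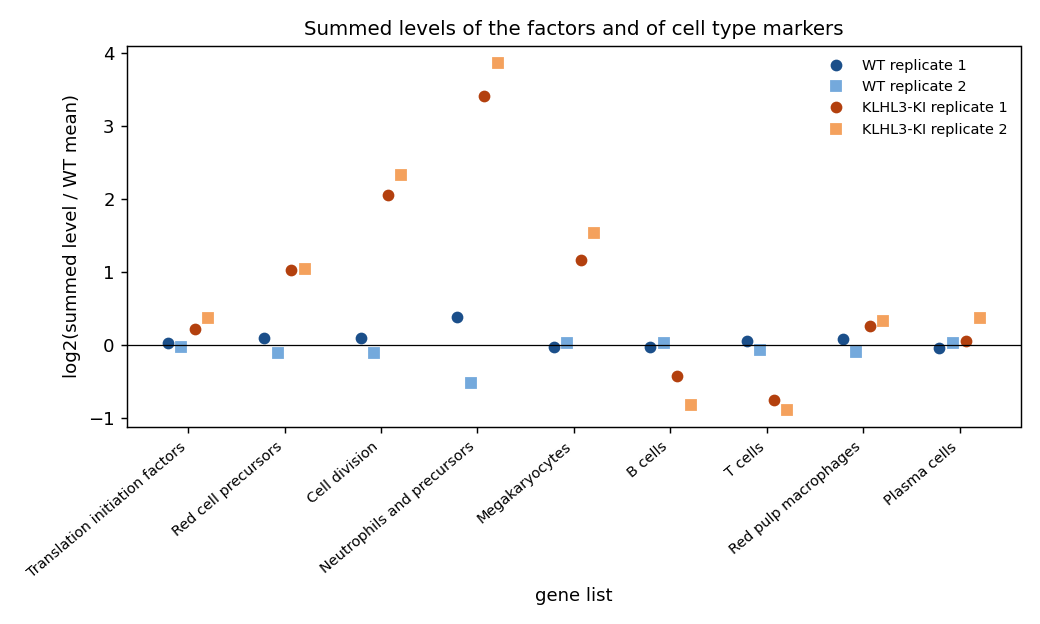
Log2 of the summed scaled count of each gene list in each library divided by the mean sum of the WT libraries; each point is 1 library. The sum of the 48 initiation factor genes moved less than those of red cell precursor, cell division, neutrophil and megakaryocyte markers, which are above WT in both KLHL3-KI libraries, while B cell and T cell markers are below. Most of the red cell precursor sum is Hbb-bs and Hba-a1.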

How the data were processed

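Spleen RNA was extracted with TRIzol and sequenced after ribosomal RNA depletion from directional libraries, per the labels' protocols. Per the submitters' processing notes, Trimmomatic 0.38, Bowtie2, RSEM 1.3.0 and edgeR were used with build GRCm39; their roles, the annotation and any use of strand were not stated, so reads of overlapping antisense genes cannot be told apart. The authors deposited a normalized signal per gene and library. Every value was a whole multiple of its library's smallest value (100% of values, within 0.001 of a read), so the whole reads were recovered. Precision is limited by 8535483 to 10933023 reads per library and by 2 libraries per group.

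Groups came from the sample titles. Symbols came from an annotation of build GRCm38 (99.3% of identifiers matched, 158 without a name). Of the genes, 16970 had a mean of 1 or more and were tested (6793 were below) on log2(value + 1) with limma 3.58.1 in R 4.3.3, a two-sided test with a variance trend, at a Benjamini-Hochberg adjusted p under 0.05. A single-gene exact test on these samples cannot go below p = 0.333. Same-numbered libraries did not deviate together (r = -0.03 across genes). Alternatives were edgeR 4.0.16 (quasi-likelihood, TMM) and DESeq2 1.42.0 on the recovered reads, equal total reads, quantile normalization, pseudocounts of 0.1 and 5, no filter, a mean of at least 5, no variance trend, a replicate block, and each library left out. Scripts were tested on simulated data. Shared 50-base stretches were counted over GENCODE M21 transcripts.

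The initiation factor genes and all lists were chosen with earlier results of these data known. Values in each library are given for the 14 rising genes with the lowest p and for the fall. They are also given for the most abundant and most changed gene of each role group, and for 10 pairs of related genes. From the other lists up to 3 genes in each direction by p are named. Myc, Mycn, Eif2ak2, Ppp1r15b, Ppp1cc, Eef1a1 and Eef2 were named beside that rule.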

Additional observations from a re-analysis of the deposited data

How the results depend on the processing

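Of 669 fold changes of the 48 genes under the alternatives, 575 kept their direction and their side of the threshold, 67 kept the direction but no longer passed, 8 passed newly and 19 changed sign; none of the last passed the test. Of the 48 genes, 21 rose as reported, 12 with equal total reads and 9 without the variance trend, where 15.2%, 11.3% and 10.6% of all tested genes rose. The number of the 48 genes that fell was 1, and 0 without a filter and without the variance trend. The median log2 fold change of the 48 genes was 0.31 as reported, 0.14 with equal total reads and 0.19 after quantile normalization. Over all genes, 1283 fell as reported, 781 by DESeq2, 659 without the variance trend, 3130 with equal total reads and 2372 after quantile normalization. With each library left out in turn, 6 to 25 of the 48 genes rose and 0 to 1 fell, their median ran from 0.25 to 0.39, and over all genes 1385 to 2935 rose and 268 to 1686 fell. With a replicate block, 23 of the 48 rose and 1 fell, and over all genes 2715 rose and 1415 fell. The replicate numbers follow the sample titles, and the submitters' column names number the libraries in another way. No pairing of the samples is stated. Among the signs that turned, Eif4ebp3 was at -0.0086 by edgeR; Eif2b5, Eif2d, Eif3h and Eif4b were at -0.14, -0.11, -0.050 and -0.033 with equal total reads and at -0.14, -0.098, -0.019 and -0.037 after quantile normalization, where Eif4g2 was at -0.061. Eef1a1 and Eef2 were at -0.099 and -0.093 with equal total reads, and Eef2 at -0.23 after quantile normalization. With a library left out, the range crossed 0 for Eif1ad (-0.0030 to 0.42), Eif2b5 (-0.097 to 0.14), Eif3f (-0.10 to 0.063), Eif4a2 (-0.14 to 0.0027), Eif4e2 (-0.097 to 0.065), Eif4ebp2 (-0.19 to 0.040), Eif4ebp3 (-0.68 to 0.63), Eif2s3y (-0.18 to 0.030) and Eef1a1 (-0.0057 to 0.14). The number of B cell markers that fell was 8 as reported, 4 without the variance trend and 2 to 9 with a library left out. The number that rose ran over the alternatives from 0 to 3 for termination genes, 1 to 2 for poly(A)-binding proteins, 2 to 6 for eIF2 alpha kinases and phosphatases, 0 to 2 for mTOR control, 0 to 3 for accessory genes and 3 to 5 for the Myc list. A sample left alone in its group was assumed to vary like the other group. The causes were not tested. Depth limits Eif4ebp3, with at most 21 reads in a library.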

Other observations

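Some values near the detection limit ran with the replicate number and not with the group. Eif4ebp3 was at 0 and 2.18 in WT, against 0.441 and 1.75 in KLHL3-KI, and the pseudogene Eif4a-ps4, which the naming rule left out, had 0 and 41 reads in WT, against 0 and 30 in KLHL3-KI. Both were thus high in replicate 2 of each group. For Eif4ebp3, 65.5% of the 50-base stretches of its transcript also occur in other genes. Of the 48 genes, 3 share over 50% of their stretches with other genes (Eif3j2, Eif4a1 and Eif4ebp3) and 23 share none. Without those 3 genes, 19 of 45 rose and 1 fell, against 15.2% and 7.56% of all tested genes, and the median log2 fold change was 0.29.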
